A study of Mus musculus with 3 samples.

Results

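The genes described here encode the initiation and elongation factors of cytosolic protein synthesis. They were chosen by name alone: protein-coding genes of the GENCODE M21 annotation whose symbol starts with Eif or Eef and a digit, without the X- and Y-linked genes of the eIF2 gamma subunit, Eif2s3x and Eif2s3y. This gave 66 genes of 22028 protein-coding genes and 55536 annotated genes in all. No measured value entered the choice, but it was made with earlier results of these data known.

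The RNA came from macrophages grown in culture from bone marrow of C57BL/6J mice (BMDM). They had been given lipid A, the part of bacterial lipopolysaccharide that Toll-like receptor 4 recognises, at 100 ng/ml for 50 min. RNA of the cytosolic fraction was depleted of ribosomal RNA and sequenced in 3 libraries, which form 1 group. All 3 carry the same donor label and separate biosample records, and the labels do not say whether they were separate animals or separate cultures, so a p-value reflects only how these samples spread, and that spread may be technical. Because only stimulated cells were measured here, the levels are not changes caused by lipid A. Levels in bulk RNA cannot tell fewer cells of a type and less RNA per cell apart.

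As background, initiation starts when a ternary complex of eIF2, GTP and initiator tRNA joins the small ribosomal subunit with eIF1, eIF1A, eIF3 and eIF5. The cap-binding complex eIF4F (eIF4E, the scaffold eIF4G and the helicase eIF4A) brings this complex to the mRNA, which is scanned to a start codon. In elongation, eEF1A delivers aminoacyl-tRNA and eEF2 moves the ribosome by a codon. Phosphorylation of eIF2 by its kinases, sequestration of eIF4E by the 4E-BPs and phosphorylation of eEF2 by its kinase slow these steps, and in macrophages they are known points at which cytokine synthesis is set after a microbial stimulus.

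The libraries held 33044910, 36769402 and 36522216 expected counts (estimated reads assigned to genes). A count of 0 at these depths allows a level of up to 3 counts, or 0.0908, 0.0816 and 0.0821 CPM (counts scaled to library size) in libraries 1, 2 and 3, for counting error only. All 10 macrophage markers reached 1 TPM (TPM being transcript abundance as a share of the library, scaled for transcript length) in every library. All 23 markers of T, NK, B, erythroid, neutrophil and progenitor, dendritic, fibroblast, endothelial and mast cells were under 1 TPM, 7 of them at 0 counts in each library, and they summed to 2.9, 1.47 and 0.92 TPM. TPM is a share of all RNA listed, and protein-coding genes took 38.4%, 26.6% and 34.8% of it. The median gene was accordingly 0.48 lower on the log2 TPM scale in library 2 than in library 1, and 0.08 lower in library 3. A low TPM of a factor in library 2 is therefore set here against that shift, and differences between libraries are given as log2 CPM with TMM scaling (trimmed mean of M values).

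Nearly the whole set was present. A gene is called detected here at 1 TPM or more in every library, and this held for 63 of the 66 genes (95.5%), against 9128 of 22028 protein-coding genes (41.4%). Of the 66, 39 reached 10 TPM in every library and 7 reached 100 TPM, against 3711 and 421 of the 22028 protein-coding genes. The factors together made up 1.64%, 1.39% and 1.48% of all protein-coding TPM (1.5 ± 0.123, SD, n = 3). Their median level was 20.7, 17.3 and 22.3 TPM in libraries 1, 2 and 3, above the median detected protein-coding gene (10.5, 7.47 and 10.1 TPM). It lay above that of the 20 cytosolic aminoacyl-tRNA synthetases (12.8, 9.63 and 12.3 TPM) and below that of the 83 ribosomal protein genes (273, 217 and 345 TPM). On the log2 TPM scale the synthetases' median was -0.80 ± 0.09 from the factors' median and that of the ribosomal protein genes 3.78 ± 0.16 above it, in the same order in all 3 libraries.

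**Figure D1:**
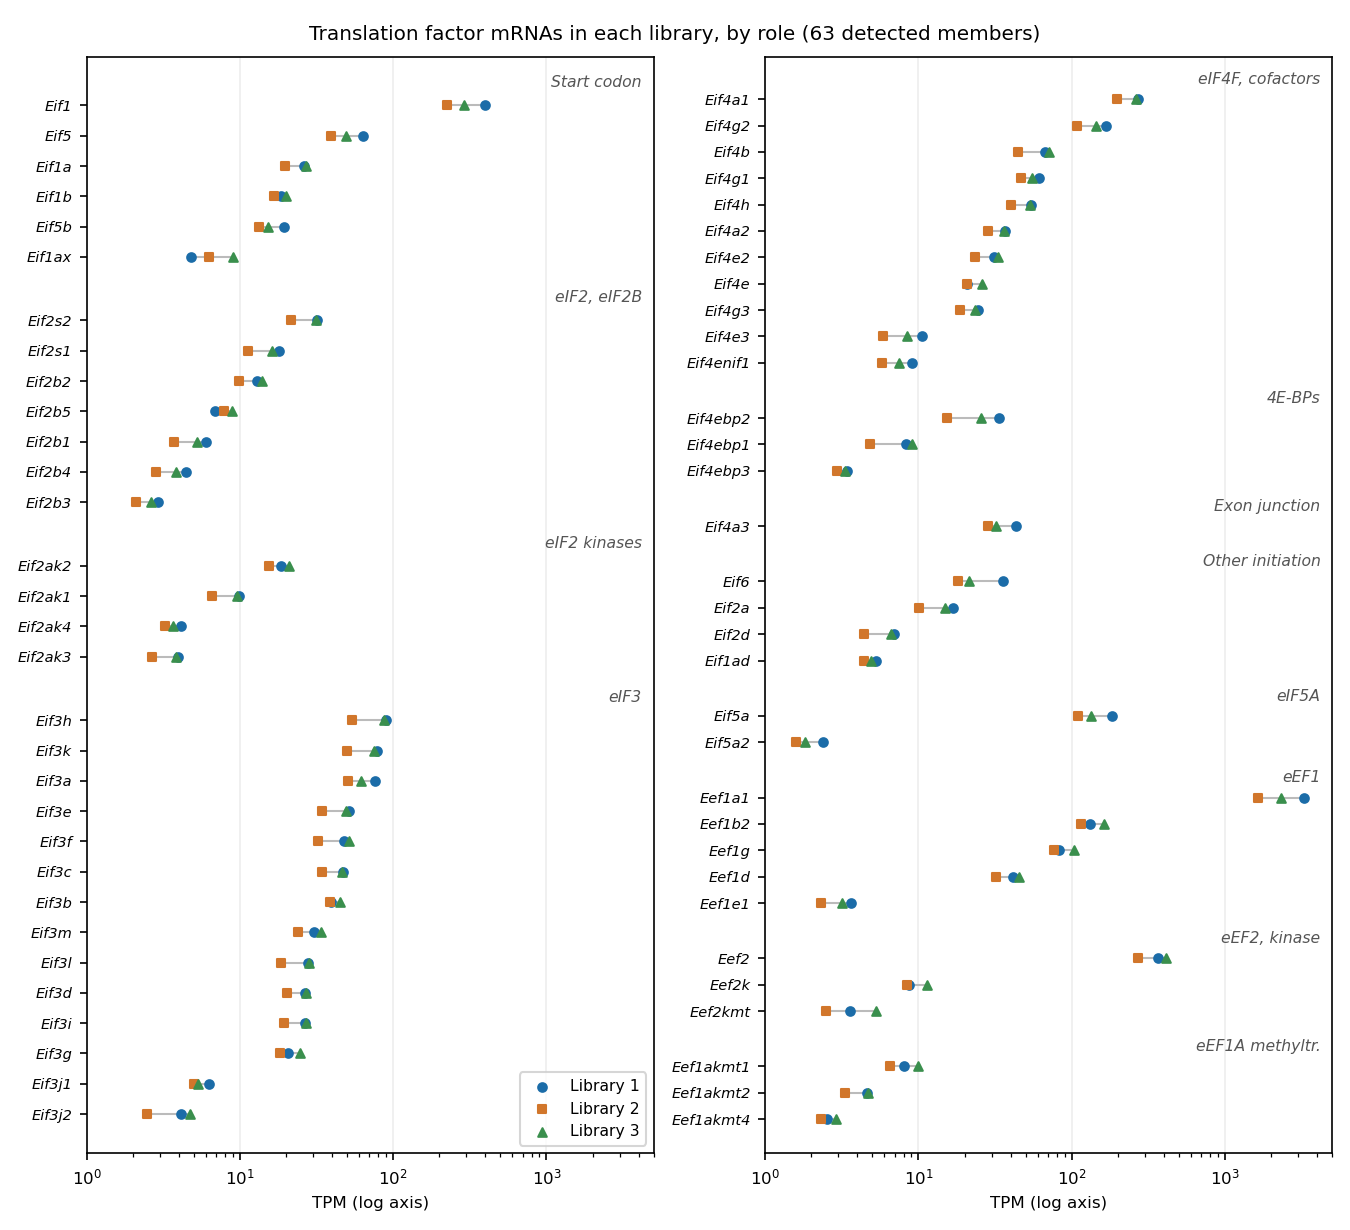
TPM of each of the 63 detected factors (log axis), grouped by role, with 1 symbol per library and a line over the range. Levels run from about 2 TPM for Eif5a2 (mean 1.93) to 2420 TPM for Eef1a1, and library 2 (squares) is lowest for most genes, as it was for the median over all genes.

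Elongation factor mRNA dominated the set. Eef1a1, which encodes the GTPase that brings aminoacyl-tRNA to the ribosome (chr9:78478449-78489151, minus strand, mm10), was at 3304, 1640 and 2316 TPM. It was highest in library 1 and lowest in library 2, and it alone made up 52.7%, 44.2% and 45% of the factors' TPM. The 6 genes with the highest mean level, Eef1a1, Eef2, Eif1, Eif4a1, Eif5a and Eif4g2, made up 70.9 ± 3.35% (SD, n = 3). Eef1a1 has many near-identical processed copies in the genome, between which the authors' quantification could have split reads.

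The eEF1 complex recharges eEF1A with GTP. Its exchange subunit gene Eef1b2 was at 131, 115 and 163 TPM. Eef1g, its structural subunit gene, was at 83.3, 76.8 and 104 TPM, and Eef1d, a second exchange subunit gene, at 41.6, 31.9 and 45.4 TPM. All 3 were highest in library 3 and lowest in library 2 on the TPM scale. In gene totals the order Eef1a1, Eef1b2, Eef1g, Eef1d held in each library. Protein-coding transcripts took 50.2%, 48.7% and 57.8% of the transcript TPM of Eef1b2, against 99.2%, 91.5% and 87.8% for Eef1g. The place of Eef1b2 above Eef1g is therefore not one of coding mRNA alone. Within the complex the highest gene exceeded the lowest 79.4-, 51.4- and 51-fold. Eef1e1, which encodes an auxiliary protein of the multi-synthetase complex, was far lower at 3.63, 2.32 and 3.17 TPM. Eef1d shares bases with Naprt (1.38 TPM) on its own strand.

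Eef1a2, the eEF1A paralogue known from muscle and neurons, had 1 count in each library, below the limit that a count of 0 allows. With both genes read per length, nearly all eEF1A mRNA measured here was Eef1a1. Eef2, whose product catalyses translocation, was at 363, 272 and 412 TPM (chr10:81176631-81182498, plus strand), second in the set by mean. Its inhibitory kinase gene Eef2k was at 8.66, 8.38 and 11.4 TPM, and the gene of its lysine methyltransferase, Eef2kmt, at 3.57, 2.51 and 5.25 TPM. Both Eef2 and Eef2k were highest in library 3. Among the eEF1A methyltransferase genes, Eef1akmt1 (8.06, 6.54 and 9.89 TPM), Eef1akmt2 (4.61, 3.32 and 4.67 TPM) and Eef1akmt4 (2.54, 2.3 and 2.88 TPM) were detected and Eef1akmt3 was not, with 0, 2 and 0 counts.

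Eif5a, which encodes the hypusine-bearing factor that helps ribosomes through difficult peptide bonds, was at 184, 110 and 134 TPM. Its paralogue Eif5a2 was at 2.37, 1.58 and 1.83 TPM. Eif5a was the higher in 3 of 3 libraries by 6.2 ± 0.08 on the log2 scale, or 73.6-fold, the widest gap among 22 paralogue pairs compared. These pairs were formed of detected genes only, so none includes Eef1a2.

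Several elongation factor mRNAs belong to the TOP class, whose 5' end is a terminal run of pyrimidines read by the mTOR pathway through LARP1. The set holds 9 genes listed as TOP mRNAs from general knowledge: Eef1a1, Eef1b2, Eef1d, Eef1g, Eef2, Eif3e, Eif3f, Eif3h and Eif4b. The RefSeq promoter table (GRCm38.p6) held 50 of the 66 factors and 5 of these 9. The windows of 15 bases on either side of the annotated start are shown, 5' to 3'. The TOP class is defined by the letters at the mRNA 5' end, which an annotated start need not mark. Capitals mark the longest unbroken run of C or T that overlaps the 5 bases on either side of the start.
Eef1a1, chr9:78481710-78481739, minus strand: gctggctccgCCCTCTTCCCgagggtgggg
Eif3f, chr7:108934400-108934429, plus strand: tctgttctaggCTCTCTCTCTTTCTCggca
Eef1b2, chr1:63176816-63176845, plus strand: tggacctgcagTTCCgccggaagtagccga
Eef2, chr10:81176616-81176645, plus strand: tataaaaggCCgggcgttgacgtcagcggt
Eif4b, chr15:102073758-102073787, plus strand: ggtcttcccgTCggacgccgcgccaccccc
The run was 10 bases in Eef1a1 and 15 in Eif3f, but 4 in Eef1b2 and 2 in Eef2 and in Eif4b. A run of 5 or more bases was thus found at 2 of these 5 starts, at 20 of the 60 starts of the other factors (33.3%), at 49.3% of ribosomal protein starts and at 31.4% of all promoters in the table. Annotated starts can lie away from the used start, which was not measured here. The Eef1a1 window, for example, lies inside the gene span, which ends at chr9:78489151. The runs therefore describe letters at annotated starts and not measured mRNA 5' ends. Within 50 bases on either side, a choice made after the narrow window was seen, a run of 7 or more was found at 4 of the 5 TOP starts, 51.7% of the others, 85.3% of ribosomal protein starts and 52.3% of all promoters.

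The factors that choose the start codon were led by Eif1, which guards start codon fidelity, at 397, 223 and 292 TPM. Its paralogue Eif1b was at 18.6, 16.6 and 20 TPM, lower in 3 of 3 libraries by 4.01 ± 0.35 on the log2 scale. A short transcript without an annotated reading frame took 58%, 42% and 38.8% of the transcript TPM of Eif1. For Eif1b all transcript TPM was protein-coding, so this ratio is not one of coding mRNA alone. Eif5, the GTPase activator of eIF2, was at 63.9, 39.2 and 49.1 TPM, and Eif5b, the GTPase of subunit joining, at 19.5, 13.2 and 15.1 TPM. Eif1, Eif5 and Eif5b were all highest in library 1 and lowest in library 2 on the TPM scale. Of the genes for the scanning factor eIF1A, Eif1a was at 26.3, 19.7 and 26.9 TPM and the X-linked Eif1ax at 4.81, 6.29 and 8.99 TPM. Eif1a was the higher in 3 of 3 libraries (log2 ratio 1.89 ± 0.49). These genes are near-identical in coding sequence, so reads could have been split between them.

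The eIF2 complex delivers initiator tRNA. Eif2s2, its beta subunit gene, was at 32, 21.5 and 31.4 TPM, and Eif2s1, the gene of the alpha subunit that stress kinases phosphorylate, at 17.8, 11.3 and 16.2 TPM. Eif2s2 exceeded Eif2s1 by 1.88 ± 0.0798-fold (SD, n = 3) and was the higher in each library. A short transcript without an annotated reading frame took 19.8%, 9.91% and 13.4% of the transcript TPM of Eif2s1. That of Eif2s2 was 99.6% protein-coding on average, so this ratio is not one of coding mRNA alone. Genes of eIF2B, the exchange factor that reloads eIF2 with GTP, were lower. The 5 subunits lay in the order Eif2b2 (mean 12.2 TPM), Eif2b5 (7.84 TPM), Eif2b1 (4.98 TPM), Eif2b4 (3.68 TPM) and Eif2b3 (2.54 TPM). That order of gene totals held in every library at each of its 4 steps, and the highest subunit exceeded the lowest by 4.82 ± 0.426-fold. Transcripts with retained introns took 29.4%, 41.9% and 42.4% of the transcript TPM of Eif2b2, while that of Eif2b5 was 100% protein-coding. The place of Eif2b2 above Eif2b5 is therefore not one of coding mRNA alone. Eif2b5, which encodes the catalytic subunit, was at 6.86, 7.82 and 8.84 TPM, the only eIF2B gene with its lowest value in library 1.

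The eIF2 kinases each sense a different stress. Eif2ak2, which encodes the double-stranded RNA sensor PKR and is known as an interferon-inducible gene, was highest of the 4 at 18.6, 15.4 and 20.9 TPM (chr17:78852564-78882573, minus strand). Eif2ak1, the gene of the haem-regulated kinase, was at 9.8, 6.59 and 9.51 TPM. Eif2ak4, for the amino acid sensor GCN2, was at 4.15, 3.23 and 3.64 TPM, and Eif2ak3, for the endoplasmic reticulum kinase PERK, at 3.96, 2.68 and 3.82 TPM. Eif2ak2 exceeded Eif2ak1 2.14-fold, Eif2ak3 5.29-fold and Eif2ak4 4.97-fold, in 3 of 3 libraries each. Eif2ak3 and Eif2ak4 were not separable: Eif2ak3 was the higher in 1 of 3 libraries, with a log2 ratio of -0.09 ± 0.17.

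The letters GAAANNGAAA, the core of interferon-type response elements, were searched on both strands of the 300-base promoter windows because Eif2ak2 is known as an interferon target. They were present at 3 of 65 annotated starts of the factors (4.62%), those of Eif2ak2, Eif2s1 and Eif3a, and at 3.44% of all promoters. In Eif2ak2 the match, in capitals, began 19 bases into the transcript.
Eif2ak2, chr17:78882535-78882564, minus strand: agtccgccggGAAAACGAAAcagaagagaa
The match is a description of letters and is not evidence of binding. Of 12 listed interferon-related genes, 12 were detected (against 41.4% of protein-coding genes) and 4 (33.3%, against 1.66% of all genes tested) varied between libraries by the test given below, while Eif2ak2 did not pass it (edgeR goodness of fit, adjusted p = 1).

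The eIF3 genes, whose products form the large scaffold of the preinitiation complex, ranged from 3.78 TPM (Eif3j2) to 76.9 TPM (Eif3h) in mean level. The 12 core subunit genes ranged from Eif3h (89.9, 54.1 and 86.7 TPM) to Eif3g (20.6, 18.3 and 24.7 TPM), a 3.61 ± 0.707-fold span. Eif3h was the highest in each library, but so close to Eif3k (78.3, 50.3 and 75.5 TPM) that the pair differed by 0.17 ± 0.05 on the log2 scale, in 1 direction throughout. The scaffold gene Eif3a (76.1, 50.9 and 61.9 TPM) and Eif3e (51.7, 34.3 and 49.3 TPM) followed. Of the 11 steps in the order of the 12 genes, 5 kept their direction in all 3 libraries. Neighbours such as Eif3k and Eif3a, or Eif3e and Eif3f, therefore do not differ beyond their spread.

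Eif3j1 and Eif3j2 are near-identical genes for the loosely bound j subunit, and their order was not settled by the files. The first quantification gave Eif3j1 at 6.24, 5.02 and 5.35 TPM and Eif3j2 at 4.14, 2.48 and 4.72 TPM, with a log2 ratio of 0.6 ± 0.42 and Eif3j1 higher in 3 of 3 libraries. The second quantification that the authors deposited put Eif3j1 lower in 3 of 3 libraries, with a log2 ratio of -1.01 ± 0.34. Eif3j1 also overlaps Spg11 (10.3 TPM) on the opposite strand.

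The genes of cap binding and unwinding hold several paralogues each. Eif4a1, the main helicase gene, was at 271, 197 and 264 TPM (chr11:69666936-69672423, minus strand), and Eif4a2 at 36.5, 28.4 and 36 TPM. Their log2 ratio was 2.89, 2.8 and 2.88 in libraries 1, 2 and 3, a 7.24-fold difference with an SD of 0.05. Eif4a3, whose product is the helicase of the exon junction complex and not an initiation factor in the usual sense, was at 43, 28.3 and 32.3 TPM. In gene totals it was not separable from Eif4a2 (log2 ratio of Eif4a2 to Eif4a3 -0.03 ± 0.2, mixed in direction). Protein-coding transcripts took on average 93.8% of the transcript TPM of Eif4a1, 29.9% of that of Eif4a2 and 53.1% of that of Eif4a3. The ratios among these genes are therefore not ones of coding mRNA alone.

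Among the scaffolds, Eif4g2, which encodes DAP5, a form that lacks the eIF4E-binding region, was the highest at 168, 108 and 144 TPM. Eif4g1, the canonical scaffold gene, was at 61.4, 46.4 and 55.5 TPM and Eif4g3 at 24.7, 18.8 and 23.3 TPM. Eif4g2 exceeded Eif4g1 2.54-fold and Eif4g1 exceeded Eif4g3 2.44-fold, each in 3 of 3 libraries. The log2 ratio of Eif4g1 to Eif4g3 was 1.29 ± 0.03 in the first quantification and 1.3 ± 0.27 in the second, so its spread depended on the quantification.

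The cap-binding protein genes were lower. Eif4e was at 20.8, 20.7 and 25.9 TPM, and Eif4e2, for the repressive cap binder 4EHP, at 31.3, 23.3 and 33.2 TPM. Eif4e3, for an atypical cap binder, was at 10.6, 5.91 and 8.46 TPM, and Eif4e1b, known from oocytes, had a count of 0 in each library. Eif4e2 exceeded Eif4e 1.3-fold in 3 of 3 libraries in the first quantification, whereas in the second Eif4e was the higher in 1 of 3 (log2 ratio -0.17 ± 0.26). Among the genes of the canonical eIF4F subunits, Eif4a1 exceeded Eif4g1, and Eif4g1 exceeded Eif4e, in each library, and Eif4a1 over Eif4e was 10.9 ± 1.87-fold. The helicase cofactor genes Eif4b (67.3, 44.6 and 70.8 TPM) and Eif4h (54.5, 40.2 and 53.9 TPM) lay near Eif4g1.

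The 4E-BP genes, whose products hold eIF4E away from eIF4G until mTOR phosphorylates them, were led by Eif4ebp2 at 33.4, 15.4 and 25.6 TPM. Eif4ebp1 was at 8.31, 4.8 and 9.11 TPM and Eif4ebp3 at 3.43, 2.96 and 3.32 TPM. Eif4ebp2 exceeded Eif4ebp1 3.31-fold and Eif4ebp3 7.32-fold in 3 of 3 libraries, and Eif4ebp1 exceeded Eif4ebp3 2.21-fold. In the second quantification Eif4ebp2 was 15.3-fold and Eif4ebp1 4.86-fold above Eif4ebp3, in the same direction in each library. Eif4ebp3 shares bases on 1 strand with a readthrough gene, AC115631.1 (7.24 TPM), so its level is uncertain.

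Other genes with an Eif symbol included Eif6, which encodes the factor that keeps ribosomal subunits apart (35.6, 18 and 21.3 TPM). Eif2a, for an alternative initiator tRNA carrier, was at 16.9, 10 and 14.9 TPM. Eif2d was at 6.92, 4.44 and 6.6 TPM, and Eif1ad at 5.25, 4.38 and 4.92 TPM. On the TPM scale Eif6 and Eif1ad were highest in library 1 and lowest in library 2, as were Eif2a and Eif2d. On the log2 CPM scale this order held for Eif2a only. There Eif6 was lowest in library 3, Eif1ad highest in library 2 and Eif2d highest in library 3. Eif2a overlaps Serp1 (55.1 TPM) and Eif1ad overlaps Banf1 (22.6 TPM) on opposite strands, and without a stated strand setting such reads cannot be told apart.

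**Figure D2:**
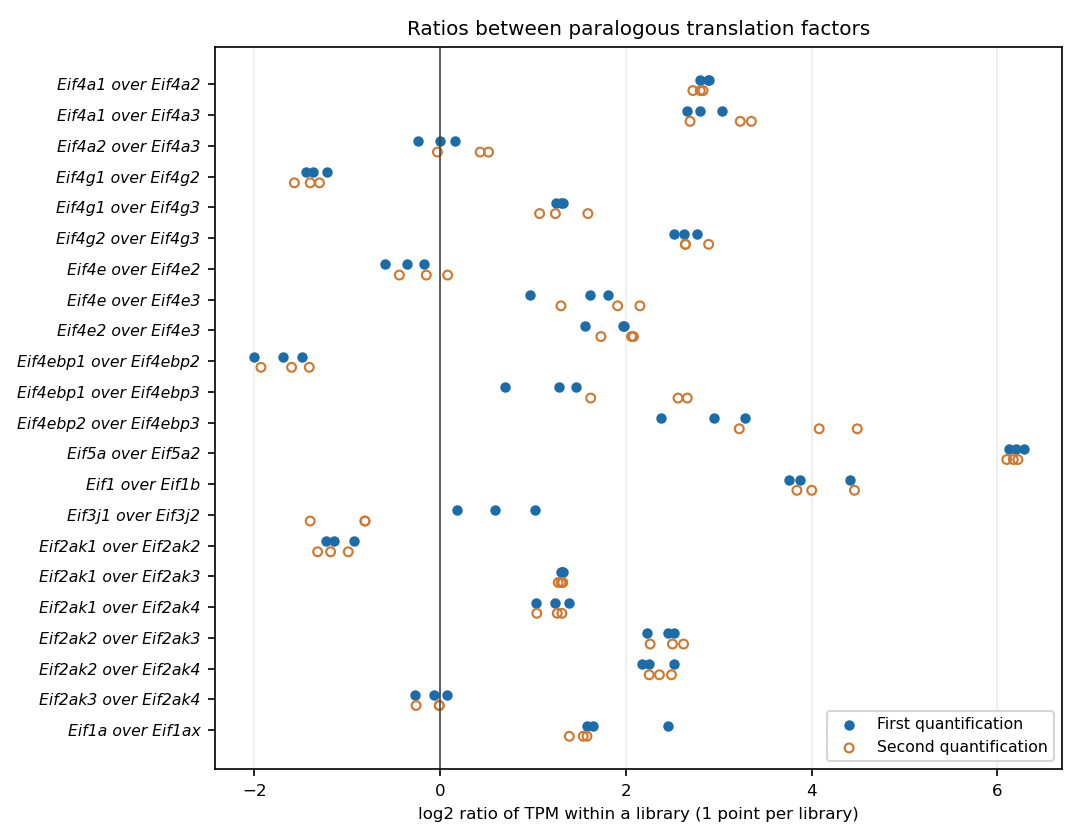
log2 ratio of TPM between paralogous factors, 1 point per library, in the first quantification (filled) and the second (open). The ratio of Eif5a to Eif5a2 lies near 6.2 in both, and only the pair of Eif3j1 and Eif3j2 has all filled points on 1 side of 0 and all open points on the other.

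In all, 20 of the 22 paralogue pairs, formed of detected factors only, kept 1 direction in the 3 libraries. The ratios are of gene totals, which include transcripts outside the protein-coding class. With 3 libraries there are too few values for an exact sign-flip test to pass a threshold of 0.05, so these counts are descriptions. TPM ratios within a library do not depend on the library's share of non-coding RNA.

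The mRNA classes within each gene added a layer that gene totals hide. GENCODE sorts the transcripts of a protein-coding gene into protein-coding, nonsense-mediated decay (NMD, with a stop codon upstream of an exon junction), retained intron and processed transcripts. Of the 63 detected factors, 16 (25.4%) had under 90% of their transcript TPM in protein-coding transcripts, against 27.2% of detected protein-coding genes. In the second quantification the number was 17 (33.7% of detected protein-coding genes fell under the same limit), with 14 genes in both. NMD transcripts made up 10% or more in 4 factors (6.35%) in each quantification, against 7.61% and 8.53% of detected protein-coding genes. The set as a whole was near the background, and the values below describe single genes, chosen after their values were seen.

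Eif4a2 had most of its transcript TPM outside protein-coding transcripts. Protein-coding transcripts took 35.6%, 22.5% and 31.6% in libraries 1, 2 and 3 and NMD transcripts 62.8%, 72% and 65.7%. In each library NMD exceeded coding, and in the second quantification it did as well (53.6 ± 1.95% NMD against 40.4 ± 4.04% coding). The leading transcript was Eif4a2-210 (chr16:23107778-23113947, plus strand), with 44, 45.1 and 43.1% of the gene. By annotation it lacks an exon of 140 bases that the leading coding transcript Eif4a2-203 holds (chr16:23109120-23109259). Its reading frame ends at a TGA in exon 4, 648 bases before the last exon junction and with 6 exons after it.

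Eef1b2 was divided between both classes. Protein-coding transcripts took 50.2%, 48.7% and 57.8% and NMD transcripts 48.2%, 48.1% and 39.3%. Library 3 was the highest for coding and the lowest for NMD, and the second quantification had 47.6 ± 4.54% coding and 50.6 ± 5.12% NMD. Its leading NMD transcript, Eef1b2-205 (chr1:63177145-63179568, plus strand), holds an exon of 154 bases that does not overlap the leading coding transcript Eef1b2-209 (chr1:63177723-63177876). Its frame ends at a TGA in exon 3, 306 bases before the last junction.

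The 30 bases around both stops are given because a stop upstream of an exon junction places these transcripts in the NMD class. The bases were read from the GENCODE M21 transcripts (mm10), and capitals mark the stop codon.
Eif4a2-210, chr16:23110050-23110079, plus strand: aacaaatgttcgaaaTGAaatgcagaagtt
Eef1b2-205, chr1:63178439-63178468, plus strand: cctgccgggagTGAagaaatctttgggcaa
Both stops lie inside exons that the coding transcripts also hold. The class is an annotation, and decay of these transcripts was not measured. The annotated pairs also differ in the bounds of their first and last exons. The last exon has 145 bases in Eif4a2-203 and 781 in Eif4a2-210, and 199 in Eef1b2-209 and 111 in Eef1b2-205. The shares can therefore rest on reads in these end exons as well as on the few reads at the exon held by only 1 transcript. Counts of either kind of read were not given.

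The other NMD shares were smaller. Eef1akmt2 had 20%, 17.2% and 18% of its TPM in NMD transcripts. Eif2a had 0%, 31.4% and 33.7%, so library 1 stood apart from libraries 2 and 3 in this gene, and in the second quantification the share was 0%, 12.3% and 20.7%.

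Retained introns took 29.4%, 41.9% and 42.4% of the TPM of Eif2b2, and the second quantification gave 38.9 ± 13.1%. Eif1ax had 0%, 42.7% and 52.1% in the first quantification but 51.6%, 58.6% and 58.1% in the second. For Eif5b the quantifications were far apart: retained introns took 0.744 ± 0.72% in the first and 49.1 ± 4% in the second. The classes of Eif1ax and Eif5b are therefore not settled by the files.

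Short processed transcripts, which carry no annotated reading frame, took 10% or more in at least 1 library in 7 factors (11.1%), against 13.9% of detected protein-coding genes. In 5 of the 7 (Eef1a1, Eif1, Eif4a3, Eif6 and Eif2s1) the share was highest in library 1, in both quantifications, and among all genes past the same limit the share was highest in library 1 in 45.7%. In Eef1a1 it was 24.5%, 1.64% and 0.924%. This came from the 505-base transcript Eef1a1-204, with 9573, 481 and 326 expected counts, beside the 1794-base coding transcript Eef1a1-201. In Eif6 the share was 35.4%, 5.11% and 0.752%, in Eif1 58%, 42% and 38.8%, and in Eif4a3 55.4%, 46.5% and 38.8%. Each of the 7 transcripts is shorter than the leading coding transcript of its gene, so a read assigned to it adds more TPM to the gene. The high TPM of Eef1a1 in library 1 (3304, against 1640 and 2316) stood beside a far smaller range in CPM (log2 12.36, 12.13 and 12.25), and that of Eif6 (35.6, against 18 and 21.3 TPM) beside 5.32, 5.26 and 5.19. Why library 1 had more of these transcripts in those 5 genes was not tested.

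**Figure D3:**
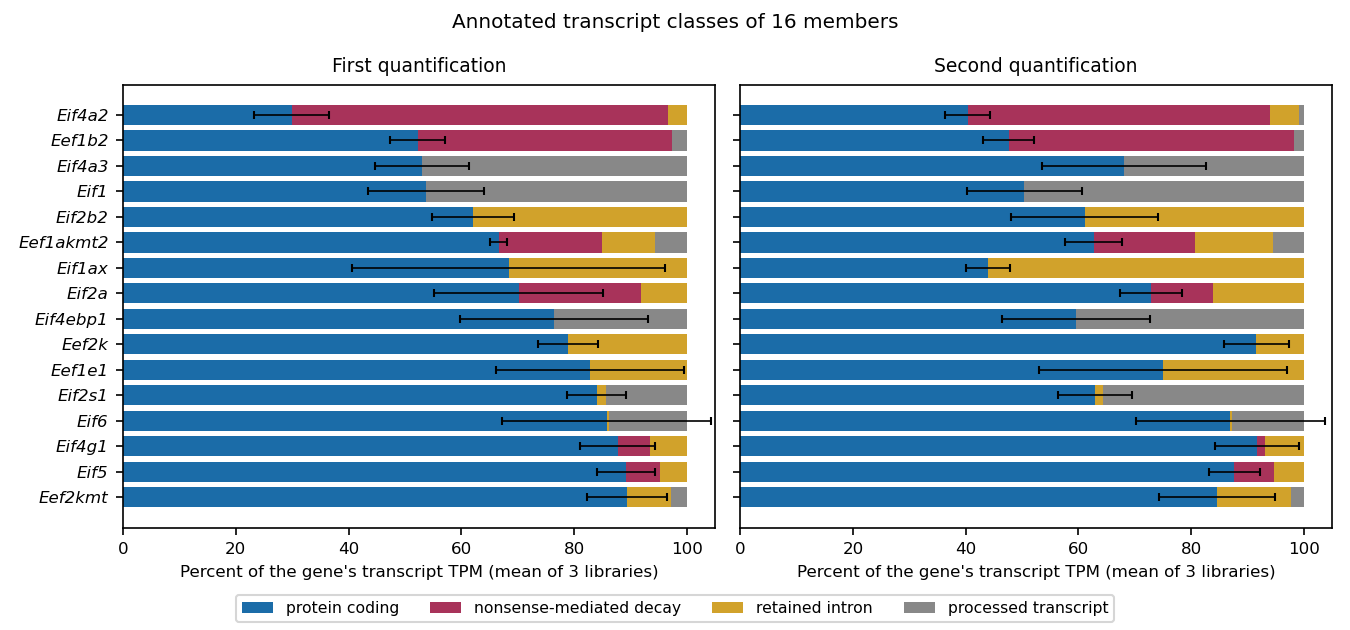
Share of each gene's transcript TPM by annotated class for the 16 factors under 90% protein-coding in the first quantification (left) and the same genes in the second (right). Bars are means of 3 libraries and error bars the SD of the protein-coding share: Eif4a2 is lowest on the left (29.9%), and Eif1ax moves from 68.4% to 43.9%.

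The leading transcript was the same in all 3 libraries in 55 of the 63 factors and the same in both quantifications in 58. In the first quantification it was protein-coding in 61 factors, the exceptions being Eif4a2 and Eef1b2. In the second it was protein-coding in 58, and Eif1, Eif1ax and Eif5b were exceptions too.

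No factor passed a test of variation between libraries. With 1 group there is no contrast, so the test was edgeR's goodness of fit to a common level, with Benjamini-Hochberg adjustment over all genes. The spread it allows is a trend over genes of like level, estimated from these same 3 libraries. In simulated counts it called 50 of 100 genes raised 2-fold in 1 library and 99 of 100 raised 4-fold. Smaller differences can therefore go uncalled. The test called 0 of the 63 detected factors at an adjusted p under 0.05, and 0 were under 0.05 before adjustment. Of all 12231 genes tested, 203 were called (1.66%) and 785 were under 0.05 unadjusted (6.42%). No other tool was run for this test. The lowest edgeR adjusted p was that of Eef1b2 (0.794), followed by Eif2b5 (0.821), and Eif3j2 came next with an adjusted p of 1. Eef1b2 was at 6.59, 6.96 and 7.16 log2 CPM, highest in library 3, a 1.48-fold range. Eif2b5 was at 4.33, 4.91 and 4.67 log2 CPM, highest in library 2, a 1.49-fold range. Across the 63 factors the ranges on this scale ran from 0.05 (Eif4a3, Eif1a) to 0.58 (Eif2b5). For comparison, 12 of 80 tested ribosomal protein genes and 0 of 20 synthetases were called.

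More of the factors were highest in library 3 than in either other library, and this included most of the TOP mRNAs. On the log2 CPM scale 16 factors were highest in library 1, 17 in library 2 and 30 in library 3 (47.6%), while 36.8%, 31.2% and 32.0% of all tested genes were highest in libraries 1, 2 and 3. Of the 9 TOP genes, 8 were highest in library 3. The exception was Eef1a1, highest in library 1. The median deviation of the 9 from their own means was -0.03, -0.09 and 0.14 in libraries 1, 2 and 3, and that of the other 54 tested factors -0.01, 0.00 and 0.03. Ribosomal protein mRNAs, which are TOP mRNAs as a class, had medians of -0.20, -0.04 and 0.25, with 72 of 80 highest in library 3. Synthetases had -0.02, 0.02 and 0.01, with 6 of 20 highest there. None of the 9 TOP factors passed the test singly.

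Other properties also differed between the libraries. The mitochondrial genome took 0.993%, 0.634% and 0.296% of expected counts in libraries 1, 2 and 3, and 6 listed nuclear RNAs, Malat1 and Neat1 among them, took 0.237%, 0.567% and 0.128%. Library 3 was thus lowest for both. Their part in the deviations of the TOP mRNAs was not tested. On the log2 TPM scale 36 factors were highest in library 1 (57.1%), 0 in library 2 and 27 in library 3 (42.9%). Of all tested genes, 59.5%, 4.43% and 36.1% were highest in libraries 1, 2 and 3 on that scale. The larger number of factors for library 3 than for library 1 thus holds for CPM only. The factors' share for library 3 was above that of all tested genes on both scales. On the TPM scale 6 of the 9 TOP genes were highest in library 3.

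**Figure D4:**
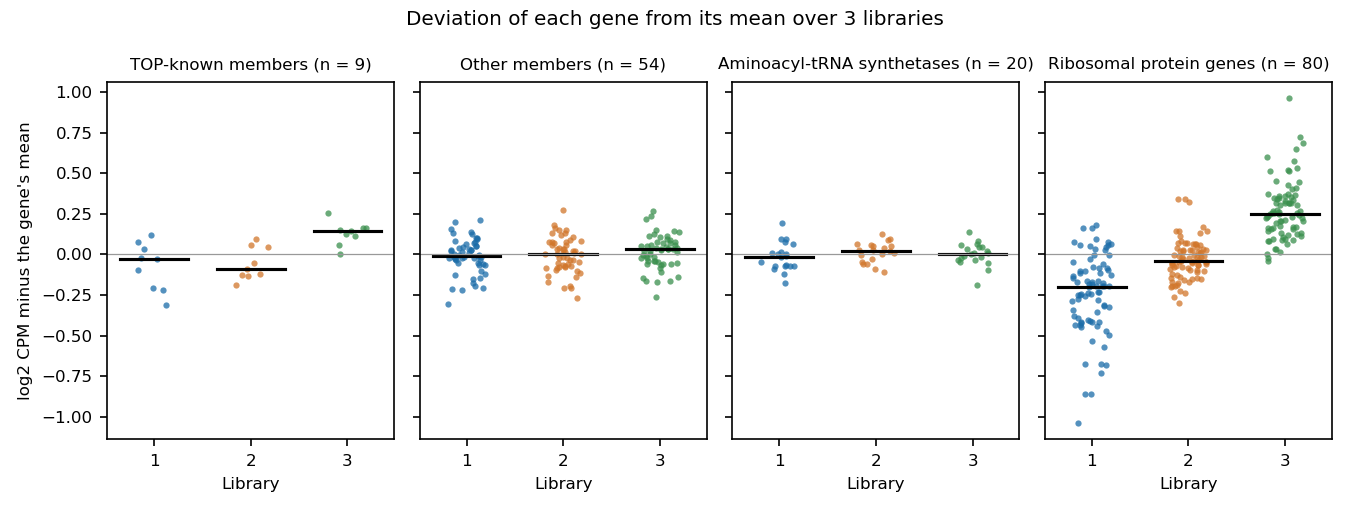
Deviation of each gene's log2 CPM from its own mean over the 3 libraries, 1 point per gene, for the TOP factors, the other factors, aminoacyl-tRNA synthetases and ribosomal protein genes, with the median as a bar. TOP factors and ribosomal protein genes lie above 0 in library 3 (medians 0.14 and 0.25), and the other factors and synthetases stay near 0.

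Other genes of translational control were taken from a list of 37, and 35 were detected. Of the 37 tested, 0 were called by edgeR's goodness of fit and 2 were under 0.05 unadjusted. The highest were Tpt1, a TOP mRNA for a small abundant protein (1373, 1125 and 1733 TPM), and Ppp1r15a, the gene of GADD34, which directs dephosphorylation of eIF2 alpha (921, 310 and 709 TPM). Ppp1r15a was the nearest to a call, with 10.76, 9.62 and 10.27 log2 CPM, lowest in library 2 (edgeR adjusted p = 0.0542). Its constitutive paralogue Ppp1r15b was at 18.4, 13.8 and 16.9 TPM. Within this list the kinase genes that phosphorylate eIF4E, Mknk2 (62.2, 35.4 and 53.7 TPM) and Mknk1 (44.3, 28.6 and 43.3 TPM), exceeded Mtor (5.43, 4.27 and 5.54 TPM) and the S6 kinase genes Rps6kb1 (5.93, 3.95 and 5.52 TPM) and Rps6kb2 (10.4, 6.92 and 8.74 TPM) in each library. The poly(A)-binding protein gene Pabpc1 was at 382, 208 and 247 TPM, and Larp1 at 22.1, 16.7 and 21.5 TPM. Dohh, for the enzyme that completes hypusine on eIF5A, was at 3.42, 4.17 and 4.02 log2 CPM, lowest in library 1 (edgeR adjusted p = 0.533).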

How the data were processed

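Per the labels and file headers, the authors quantified each library on its own against mm10 with GENCODE M21 and deposited expected counts and TPM per gene and transcript. A second transcript table they deposited holds estimated counts and TPM and was summed per gene. The tools, their versions and the strand setting were not given in the sources used here. Rows that name no gene (phiX174 and others) were left out (0.365%, 0.162% and 0.02% of counts in libraries 1, 2 and 3). Expected counts were rounded to whole numbers and tested with edgeR 4.0.16 (R 4.3.3): filterByExpr, TMM, trended dispersion, intercept-only glmFit, and the deviance of each gene against chi-square with Benjamini-Hochberg adjustment at 0.05. The script was tested on simulated data. log2 CPM used a prior count of 0.5. Levels are means of deposited TPM with the SD over 3 libraries, with no pseudocount, and 1 TPM in each library counted as detected.

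Genes named with values were the 4 highest in each role, all paralogues, those under 1 TPM, and any called. Genes named for their place in a complex or their transcript classes, and those of other lists, were chosen after their values were seen. The members and lists were chosen with earlier results of these data known, and the pair of Eif1a and Eif1ax was added after the tables were read. DESeq2 1.42.0 gave size factors only. Alternatives were other scaling, dispersion and filter, the second quantification, pseudocounts and leaving out each library.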

Additional observations from a re-analysis of the deposited data

Results flagged for a closer look

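Eif4e1b, the oocyte-type cap-binding paralogue, was listed at 0 expected counts in each library by the first quantification. The second quantification, which no level above rests on, gave it 8.34 estimated counts in library 1 and 13.8 in library 2, above the 3 counts that a count of 0 allows. On its TPM scale these were 0.0641 and 0.181 TPM, with 0.00242 TPM in library 3, so the gene was under 1 TPM in each library in both quantifications.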

How the results depend on the processing

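The design has 1 group and 3 libraries, which limits every statement above to description or to spread between libraries. No paired analysis was possible because there is only 1 group and so nothing to pair. The number of factors called stayed at 0 under RLE scaling, no filter, a common dispersion, the second quantification and each left-out library, where 1 factor was under 0.05 unadjusted: Eif3j2, Eef1b2 and Eif2b5 without libraries 1, 2 and 3. Over these settings the edgeR adjusted p ranged from 0.794 to 1 for Eef1b2, 0.802 to 1 for Eif2b5 and 0.922 to 1 for Eif3j2. Over all genes, leaving out a library gave 89 to 132 calls instead of 203: 132 without library 1, 91 without library 2 and 89 without library 3. Fewer libraries were tested there. The median of the factors' mean TPM was 21.7, and became 7.57 in the second quantification, where protein-coding genes took only 17.6%, 9.84% and 7.91% of TPM, and 65.9 with TPM rescaled to protein-coding genes. Without 1 library it was 20.1 to 23. The second quantification also lowered Eif2s2 over Eif2s1 to 1.49-fold and Eif4a1 over Eif4e to 8.93-fold, and reversed Eif3j1 against Eif3j2 (log2 ratio -1.01). The cause was not tested. Of the other values of paralogue ratios under alternatives, 97 moved by less than 1 SD and 12 by more, among them, in the second quantification, Eif4ebp2 against Eif4ebp3 (log2 ratio 3.93), Eif4ebp1 against Eif4ebp3 (2.28) and Eif4a2 against Eif4a3 (0.31). Pairs of libraries were compared after seeing the data. On the log2 CPM scale 39 factors (61.9%) were higher in library 3 than in library 1, against 50.6% of all tested genes. Against library 2 it was 40 factors (63.5%) and 51.6% of all tested genes.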
